A study of Mus musculus with 6 samples.

Results

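The CCN genes encode a small family of secreted matricellular proteins, which sit in the extracellular matrix and signal to cells without building the matrix itself. The 5 genes described here, Cyr61 (Ccn1), Ctgf (Ccn2), Nov (Ccn3), Wisp1 (Ccn4) and Wisp2 (Ccn5), were chosen by symbol from the table of 23337 genes, and all 5 were found. Tests were run on the 13671 genes whose mean reached 10 normalized counts (reads scaled by a size factor for each library), and of these 5 only Cyr61 and Ctgf were among them. The other 3 lay below that mean and are described by their values. One more CCN gene, Wisp3 (Ccn6), was not among the 5 chosen, is left out of the shares given for them, and passed the mean narrowly (11.6), with 3.36, 12.4 and 10.4 normalized counts in the wild-type replicates beside 13.4, 12.4 and 17.7 in the knockout replicates.

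The RNA came from tumour cells of basal cell carcinomas raised in the ear skin of mice, in 2 groups of 3 libraries. The wild-type group carried R26-SmoM2/+ K14CreER, and the Yap knockout group carried R26-SmoM2/+ Yapfl/fl K14CreER. Both groups therefore held the activated Hedgehog transducer SmoM2 and a tamoxifen-inducible Cre driven by the keratin 14 promoter, so that recombination was directed to basal keratinocytes of mice given tamoxifen at 4 weeks of age, and the stage label of every library gave 6 weeks after tamoxifen. Separate animals, or pools of them, are not named for the libraries, and the p-values therefore cover library-to-library spread that may in part be technical. By Xist, given below, replicate 3 of each group differed in sex from replicates 1 and 2, so it came from another animal or pool. YAP-TEAD signalling and AP1 are named in the series title, and the comparison asked how transcripts differed when Yap was deleted in the tumours.

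CCN proteins are built from modules related to IGF-binding proteins, von Willebrand factor type C domains, thrombospondin repeats and a C-terminal cystine knot, and WISP2 lacks the cystine knot. They bind integrins and heparan sulfate proteoglycans. Cyr61 and Ctgf are the most widely used transcriptional readouts of YAP, which binds promoters and enhancers through TEAD factors. Both also respond as immediate early genes to serum, stress and mechanical load, and Ctgf responds to TGF-beta. Wisp1 was described as a gene induced by Wnt signalling, and Wisp1 and Wisp2 are known from stromal cells.

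Of the 2 members tested, Cyr61 had the larger log2 difference between genotypes. Its promoter is shown here, as no other promoter of the 5 members was available. It is the stretch of 250 bases before the RefSeq start site (GRCm38.p6, chr3:145649986-145650235, minus strand), the only one of the 5 members matched in the promoter table used, with the letters of the TEAD core and of the TATA motif in capitals.
Cyr61: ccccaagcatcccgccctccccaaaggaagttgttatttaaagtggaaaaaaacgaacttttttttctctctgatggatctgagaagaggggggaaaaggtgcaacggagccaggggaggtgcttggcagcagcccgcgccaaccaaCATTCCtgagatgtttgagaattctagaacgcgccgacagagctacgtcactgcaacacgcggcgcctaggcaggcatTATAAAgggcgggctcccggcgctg
The TEAD core GGAATG was searched on both strands and matched once, as CATTCC, 103 to 98 bases before the start site. Of 32851 promoter windows of the same 250 bases, 12.6% held that core. TATAAA, searched on the gene's strand, matched once at 25 to 20 bases before the start, against 7.59% of windows. The CRE core TGACGT, searched on both strands, matched once as ACGTCA, 59 to 54 bases before the start, against 6.47% of windows. The AP-1 motif TGANTCA (both strands, 6.75% of windows) and the CArG box (both strands, 1.47% of windows) had no match in this window. These motifs did not overlap each other in the window. A match describes letters and not a bound site.

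Reads assigned to genes ranged from 15405490 to 25260431 per library. The sample titles start with a code, DM22 for replicates 1 and 2 in both genotypes and DM24 for replicate 3 in both. The DM24 libraries were female by Xist (59594 and 58654 normalized counts, against 8.62 to 15.1 in the DM22 libraries) and had the fewest reads, so sex, depth and whatever the codes mark cannot be told apart. The targeted gene Yap1 ranged over 5573 to 6004 normalized counts in wild type and was 591, 773 and 1764 in knockout libraries 1 to 3. The basal keratin Krt5 and the follicular keratin Krt17 were abundant in all 6 libraries, at 223225 to 347189 and 140032 to 209876 normalized counts. The follicular keratins Krt71 and Krt25 were far lower, at 58.4 to 377 and 40.5 to 101.5. Of the leukocyte markers 7 of 9 had a mean under 10, with Ptprc at 0 to 3.36 normalized counts, but Cd74 had 75.4 to 523 and Cd68 73.1 to 126. Of the endothelial markers 4 of 8 were under 10, with Cdh5 at 0 to 8.85, but Pecam1 had 25.9 to 83.2 and Vwf 22.02 to 65.1. Of the cartilage markers 5 of 6 were under 10, with Acan at 0 to 1.30, but Col2a1 had 277 to 572.

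Cyr61, a ligand of integrins that promotes adhesion and migration, had fewer transcripts in the knockout library of each same-numbered pair. Cyr61 (ENSMUSG00000028195.4, chromosome 3, 145646976 to 145649981, minus strand, protein coding) stood at 51678, 55358 and 14285 normalized counts in wild-type replicates 1 to 3, and its knockout values were 14646, 12650 and 5494 in the same order. Both DM22 wild-type libraries stood well above the rest, while wild-type library 3 lay between knockout libraries 1 and 2, so the groups overlapped. Groups without overlap made up 11.0% of genes tested, and 5.87% had every knockout library lower. Cyr61 averaged 40440 ± 22726 normalized counts in wild type (SD, n = 3) against 10930 ± 4812 in knockout (SD, n = 3), a ratio of wild-type to knockout means of 3.70. Within pairs the ratio was 3.53, 4.38 and 2.60.

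**Figure D1:**
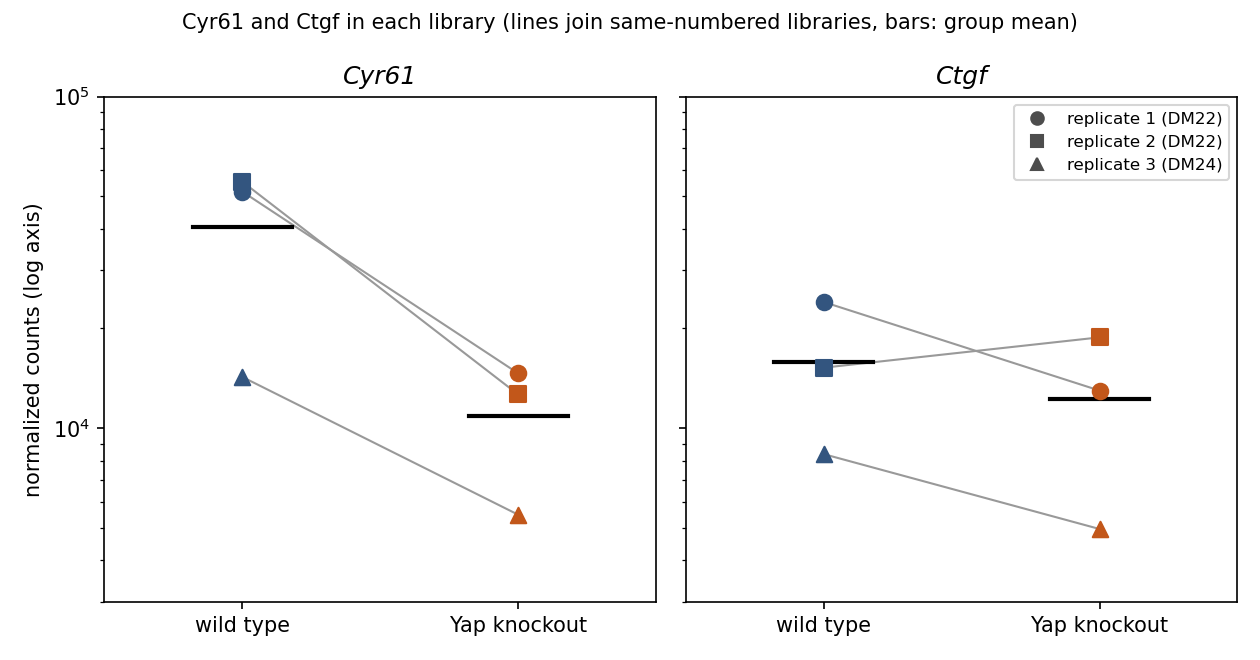
Normalized counts (log axis) of Cyr61 and Ctgf in the 6 libraries, wild type in blue and Yap knockout in orange, with lines joining same-numbered libraries and black bars at group means. Every Cyr61 line slopes down from wild type to knockout, whereas the Ctgf line of replicate 2 slopes up from 15239 to 18805, and replicate 3 (DM24) is the lowest library of its group in each panel.

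The size of the Cyr61 difference stood near the extreme of all genes, but its test depended on the tool and on whether the shared replicate number was modelled. On the log2(normalized count + 1) scale the knockout minus wild-type difference was −1.78 with a standard error of 0.62 and a 95% interval of −3.29 to −0.26, the 7th lowest of 13671 genes. Limma, the main test, gave an adjusted p of 0.85 (Benjamini-Hochberg over all genes, as for each adjusted p below), and it called 0 genes (0.0%), with 759 at an unadjusted p under 0.05. DESeq2 on the recovered reads called Cyr61 lower (adjusted p = 0.0382), one of 48 genes called lower (0.351%, and 0.527% in either direction), and edgeR did not (adjusted p = 0.805). When a library was left out, this DESeq2 call held in 1 of 6 fits, that without wild-type library 3 (adjusted p = 5.4e-06). Removing wild-type library 1 or 2 or any knockout library ended it.

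With the replicate number as a block, the limma interval of the Cyr61 difference narrowed to −2.18 to −1.37, with an adjusted p of 0.127. DESeq2 with the block gave an adjusted p of 2.7e-23, and Cyr61 had the smallest p of the 13671 genes in that fit, which called 0.834% of genes lower and 1.24% in either direction. DESeq2 with the label code as a term called Cyr61 as well (adjusted p = 1.1e-28, with 1.46% of genes called lower, 0.724% higher and 2.19% in all), and it kept that call without each of the 6 libraries in turn, at log2 differences of −1.97 to −1.66. Limma with the label code as a term gave an adjusted p of 0.0681 and called 0.0% of genes. Cyr61 was one of 17 genes (0.124% of those tested) that were at least 1 log2 unit lower in the knockout in each of the 3 pairs, where 17.3% were lower by any amount, with pair differences of −1.82, −2.13 and −1.38. Within DM22, what tells pair 1 from pair 2 is only the replicate number.

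Among the 3 knockout libraries, Yap1 and Cyr61 levels ran in opposite order. Knockout library 3 had the most Yap1 (1764 normalized counts) and the least Cyr61 (5494), while knockout library 1 had the least Yap1 (591) and the most Cyr61 of its group (14646). Knockout library 3 is the DM24 library, and Cyr61 was lower in DM24 in both genotypes. Of its group it also had the most Krt1, a suprabasal keratin, at 54564 normalized counts against 6938 and 11292 in libraries 1 and 2. Krt10, Ivl, Sbsn and Krtdap, from the same marker list, were highest there too, but Lor was lowest, at 44.3 against 84.7 and 151. The basal keratin Krt14 was also highest there, at 187297 against 89194 and 93139. The part of the label code or of these markers in this order was not tested.

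Ctgf, which promotes matrix deposition and is a mediator of fibrosis, did not show the same pattern. Ctgf (ENSMUSG00000019997.11, chromosome 10, 24595442 to 24598683, plus strand, protein coding) measured 24024, 15239 and 8363 normalized counts in wild-type replicates 1 to 3, beside 12997, 18805 and 4974 in the knockout replicates. The groups overlapped over most of their range, and knockout library 2 was higher than wild-type library 2. Ctgf averaged 15875 ± 7850 normalized counts among wild-type libraries against 12259 ± 6945 among knockout libraries (SD, n = 3 each).

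The log2 difference of Ctgf was −0.44 with a standard error of 0.58 (limma adjusted p = 0.996) and a 95% interval of −1.86 to 0.97. With the replicate block the interval was −1.12 to 0.23 (limma adjusted p = 0.648), and DESeq2 with the block did not call it (adjusted p = 0.756). The pair differences were −0.89, 0.30 and −0.75, so the direction rests on pairs 1 and 3. Without pair 2, DESeq2 with the block called Ctgf lower (log2 difference −0.82, adjusted p = 1.2e-05), and without wild-type library 2, DESeq2 with the label code called it lower too (−0.66, adjusted p = 0.00174). Without knockout library 3 the limma difference turned to 0.11. An antisense noncoding gene, Gm15270 (chromosome 10, 24549441 to 24597108, minus strand), shares 665 exonic bases with Ctgf, and the library kit does not mark strand, so reads from that stretch could come from either gene.

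The ratio of Cyr61 to Ctgf within a library removes whatever scaled both genes alike, and here the groups did not overlap. The log2 ratio of normalized counts was 1.11, 1.86 and 0.77 across the wild-type replicates, and 0.17, −0.57 and 0.14 across the knockout replicates. Each wild-type library had more Cyr61 reads than Ctgf reads, as did knockout libraries 1 and 3. The lowest wild-type ratio exceeded the highest knockout ratio. The ratio averaged 1.25 ± 0.56 (SD, n = 3) for wild type against −0.09 ± 0.42 for knockout, a difference of −1.33 (exact permutation test, two-sided, p = 0.1, the smallest p that 3 against 3 allows). The ratio was lower in knockout in 3 of 3 pairs, with differences of −0.93, −2.43 and −0.63 (exact sign-flip test, p = 0.25, the smallest that 3 pairs allow). Neither exact test can reach 0.05 with these numbers of libraries.

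**Figure D2:**
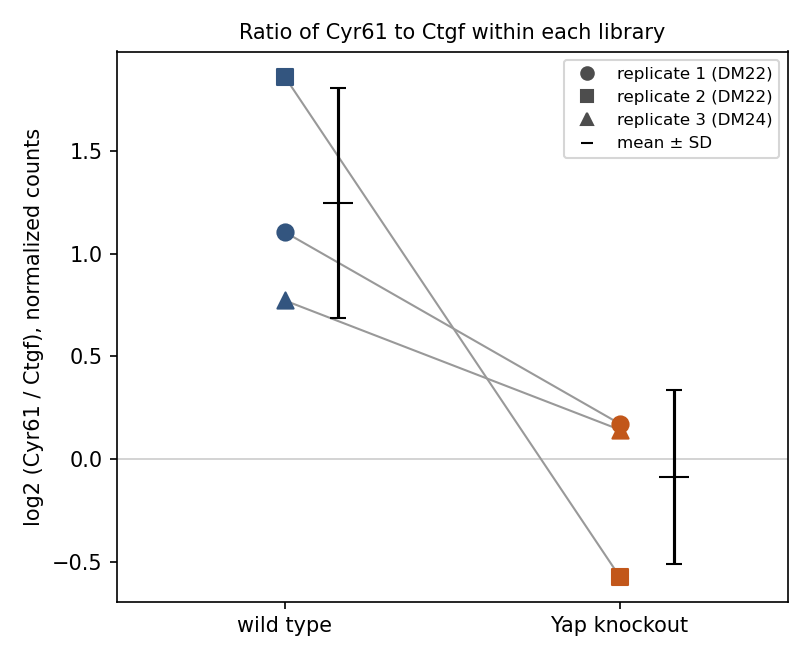
Log2 ratio of Cyr61 to Ctgf normalized counts in each library by group, with lines joining same-numbered libraries and black marks at mean ± SD (n = 3). Wild-type libraries lie between 0.77 and 1.86 and knockout libraries between −0.57 and 0.17.

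Levels of different genes were compared per kilobase of exon (GENCODE M21). Wild-type Cyr61 was the highest at 20030 ± 11256 normalized counts per kilobase (SD, n = 3), followed by wild-type Ctgf at 5549 ± 2744, knockout Cyr61 at 5414 ± 2384 and knockout Ctgf at 4285 ± 2427. Within each wild-type library Cyr61 exceeded Ctgf per kilobase, by 3.05, 5.15 and 2.42 times, and in knockout libraries 1 to 3 the ratio was 1.60, 0.953 and 1.57. The last 3 levels of this order differed from each other by less than their SDs. In both DM22 wild-type libraries Cyr61 ranked 13th of 22848 genes by counts per kilobase, it ranked 45th in wild-type library 3, and it ranked 50th, 62nd and 188th in knockout libraries 1 to 3. Ctgf ranked between 49th and 188th in wild type and between 57th and 360th in knockout. Cyr61 made up 70.7% to 83.7% of the 5 genes' summed counts per kilobase in wild-type libraries and 48.8% to 61.5% in knockout libraries, Ctgf made up nearly all of the rest, and the other 3 members of the 5 together made up 0.00685% to 0.0608%. Wisp3, outside these sums, had 2.37 to 12.5 normalized counts per kilobase. In bulk RNA, fewer cells that express a gene and less RNA per cell cannot be told apart.

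Nov, Wisp1 and Wisp2 were at the edge of detection in both genotypes. Nov (ENSMUSG00000037362.8, chromosome 15, 54745702 to 54754039, plus strand), a CCN protein known to oppose proliferation, was counted with 17, 8 and 4 reads in the wild-type replicates and with 15, 1 and 1 in the knockout replicates. In normalized counts these were 14.3, 7.66 and 5.20 against 13.4, 0.824 and 1.26. Knockout library 1 lay close to the highest wild-type library, and the other knockout libraries were under the value of 3 reads (2.47 and 3.79), the upper limit that a count of 0 allows for counting error only.

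Wisp1 (ENSMUSG00000005124.10, chromosome 15, 66891320 to 66923201, plus strand) was at 3.36, 7.66 and 14.3 normalized counts in the wild-type replicates, with 4.46, 3.30 and 12.6 in the knockout replicates, from 4 to 11 reads per library. The groups overlapped almost fully, and in each group the DM24 library was the highest. Fibroblast markers did not share one pattern. The collagens Col1a1, Col1a2 and Col3a1 were also highest in the DM24 libraries, with Col3a1 at 367 and 163 normalized counts against 0 to 48.6 in DM22. Dcn was lowest there, at 2193 and 1127 against 5275 to 9253, and Pdgfra followed neither order. Over the list of 10 fibroblast markers, 5 had a mean under 10. The summed level, most of it Dcn, was 5404, 9428 and 3293 normalized counts in the wild-type replicates. In the knockout replicates this sum was 7188, 6189 and 1653, so it was lowest in DM24 in both. The mean centred log2 value of the 5 markers tested, which weighs each gene alike, was instead highest in DM24 in both. It was −1.18, −0.43 and 1.39 in the wild-type replicates, and −0.72, 0.30 and 0.63 in the knockout replicates. The part of fibroblast RNA in the Wisp1 level was not tested.

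Wisp2 (ENSMUSG00000027656.7, chromosome 2, 163820861 to 163833146, plus strand) had 2, 2 and 0 reads in the wild-type replicates and 0 in each knockout library, so every library lay under the value of 3 reads and no fold is given. When the low-value filter was dropped, limma gave adjusted p-values of 0.944, 0.98 and 0.944 for Nov, Wisp1 and Wisp2. A difference in these 3 genes was not detectable at this depth.

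**Figure D3:**
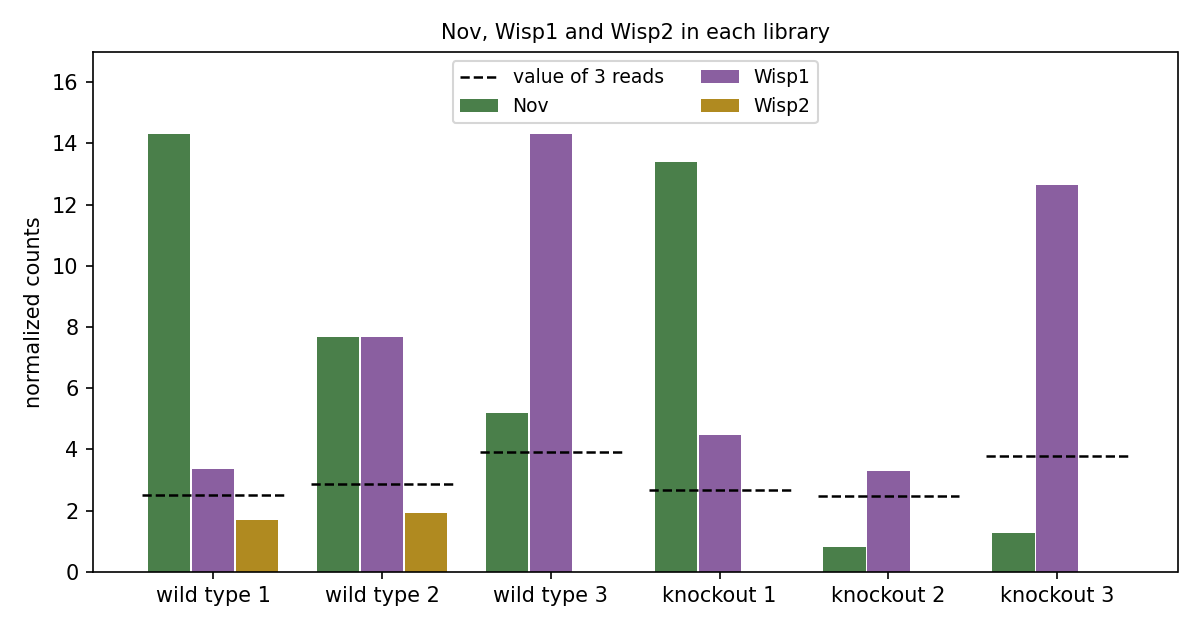
Normalized counts of Nov, Wisp1 and Wisp2 in each library (bars) with dashed lines at the value of 3 reads in that library (2.47 to 3.90). Nov exceeds the line in all 3 wild-type libraries and in knockout library 1, Wisp1 is highest in the replicate 3 libraries at 14.3 and 12.6, and Wisp2 stays under the line throughout.

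Both abundant members were also lower in the DM24 than in the DM22 libraries, by about as much as Cyr61 differed between genotypes. Cyr61 in DM22 libraries was 3.75 times its DM24 level in wild type and 2.48 times in knockout, and Ctgf was 2.35 and 3.20 times. In the limma fit with genotype and label code, the DM24 minus DM22 difference was −1.61 ± 0.15 (SE) for Cyr61 (adjusted p = 0.00987) and −1.42 ± 0.25 for Ctgf (adjusted p = 0.0377), lower in DM24 in both genotypes. That fit called 4.07% of genes lower in the DM24 libraries. The genotype difference of Cyr61 was −1.97 in the 4 DM22 libraries and −1.38 in the DM24 pair. The test of the difference between these did not pass (limma interaction 0.60 ± 0.18, SE, adjusted p = 0.867), nor did that for Ctgf (−0.46 ± 0.50, adjusted p = 0.923), and the fit called 0.0% of genes.

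Immediate early and dissociation response genes, a group known to respond to stress and to tissue dissociation, lay, like Cyr61, on the lower side in knockout and, for most, in DM24 libraries. The difference was below 0 for 30 of the 30 genes listed, and its log2 median was −0.60 against −0.0034 over all genes tested. That sign is of the group means, and some of these genes were above 0 in pair 1. The groups did not overlap, with knockout lower, for 1 of the 30, against 5.87% of all genes. Limma called 0 of them, and DESeq2 with the replicate block called 11 lower and 0 higher, against 0.834% and 0.41% of all genes. In the limma fit with label code, 21 of the 30 were called lower in DM24, against 4.07% of all genes. The list's pair medians were −0.20, −0.53 and −1.02, widest in pair 3, where the Cyr61 difference was narrowest (−1.82, −2.13 and −1.38). The summed level of the list ran from 366832 to 1021360 normalized counts in wild type and from 186736 to 691863 in knockout. Hspa8, a constitutive chaperone, had a log2 difference of −1.37 (DESeq2 with the block, adjusted p = 3.6e-13), the small MAF factor Maff one of −0.96 (1.2e-07) and the zinc finger factor Egr1 one of −0.89 (1.7e-05). The part of this response in the Cyr61 result was not tested.

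**Figure D4:**
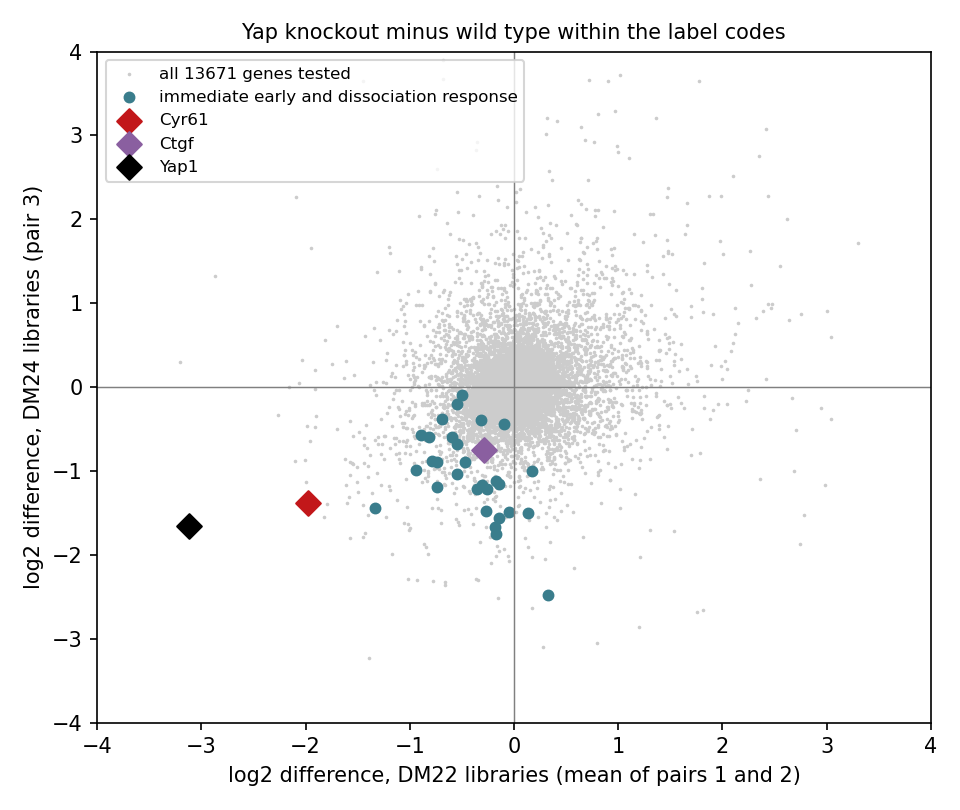
Log2 differences, knockout minus wild type, in the DM22 libraries (mean of pairs 1 and 2, x axis) and in the DM24 libraries (pair 3, y axis) for the 13671 genes tested (grey, 10 of them outside the axes), with the immediate early and dissociation response list in teal. Cyr61 lies at −1.97 and −1.38, Yap1 further left on the x axis at −3.12, and Ctgf at −0.29 and −0.75.

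Most other genes known as YAP-TEAD targets were not called. In the list of 22, 20 were tested, 15 lay below 0, and the median was −0.22. Limma called 0, while by DESeq2 with the block 3 of 20 were lower and 0 higher, against 0.834% and 0.41% of all genes. The groups did not overlap, with knockout lower, for 7 of the 20, against 5.87% of all genes. The genes called were Fjx1, a secreted kinase-like protein, with a log2 difference of −0.80 (adjusted p = 0.0132), the receptor tyrosine kinase Axl with −0.73 (0.00193), and the growth arrest gene Gadd45a with −0.57 (0.0412). Without a term DESeq2 called 1, the angiomotin Amotl2 (−1.62, adjusted p = 0.0022), which was not called with the block (adjusted p = 0.246). Among 8 YAP, TEAD and VGLL factors, DESeq2 with the block called Yap1 alone, and with the label code it also called Vgll3 lower, a TEAD cofactor (−1.11, adjusted p = 0.0331, against 0.117 with the block).

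Most of the listed genes for receptors of CCN proteins passed the mean of 10, and none of those was called. Over all genes, DESeq2 with the block called 1.24% in either direction and limma 0.0%. Lists this short with 0 calls are therefore not set apart from all genes. Of 10 integrin subunits known to bind CCN proteins, 7 were tested, with a median log2 difference of 0.05. DESeq2 with the block called 0 of them and limma 0. Itga6 averaged 10594 ± 703 normalized counts among wild-type and 10808 ± 590 among knockout libraries, and its partner Itgb1 had 11174 ± 1269 and 10260 ± 442 (SD, n = 3 each). Of 10 co-receptors, all 10 tested, DESeq2 with the block and limma called 0, and the median was −0.09. The proteoglycan Sdc4, a co-receptor for Ctgf and Cyr61, had 11628 ± 1925 and 10098 ± 3261 normalized counts, and the basement membrane proteoglycan Hspg2 had 42899 ± 2474 and 38839 ± 5193 (SD, n = 3 each).

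Other matricellular genes were called in both directions. Of 18 listed, 15 were tested, with a median of 0.02, and DESeq2 with the block called 1 lower and 2 higher, against 0.834% and 0.41% of all genes, while limma called 0. With the label code DESeq2 called 3 higher, against 0.724% of all genes in that fit. Among them was Thbs2, thrombospondin 2 (1.13, adjusted p = 0.0194, against 0.082 with the block). Thbs1, thrombospondin 1, gave 64610, 71858 and 17433 normalized counts in the wild-type replicates against 47120, 45579 and 9461 in the knockout replicates, lower in each pair and, like Cyr61, lowest in DM24. Its log2 difference was −0.66 (DESeq2 with the block, adjusted p = 2.6e-05). Smoc1, a calcium-binding SPARC relative, ran at 45.4, 20.1 and 120 normalized counts in wild type against 174, 211 and 483 in knockout, with no overlap (log2 difference 2.42, DESeq2 with the block, adjusted p = 1.5e-07). Spock2, a SPARC-family proteoglycan, had a log2 difference of 0.84 (DESeq2 with the block, adjusted p = 0.00335).

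The lists of SRF-MRTF, TGF-beta, Wnt and Hedgehog pathway genes held few or no calls by DESeq2 with the block, and limma called 0 in each. Over all genes, DESeq2 with the block called 0.834% lower and 0.41% higher, and limma called 0.0%. A count of 0 in lists this short does not set them apart from all genes. Of 14 SRF and MRTF factors and targets, which control serum-responsive genes, 1 was called lower, Srf itself (−0.39, adjusted p = 0.024, and 0.0965 with the label code), with a list median of −0.17. Of 12 TGF-beta pathway genes 0 were called (median 0.01), and the ligand Tgfb2 had a difference of 0.56 ± 0.37 (SE). Of 9 Wnt target genes 8 were tested and 0 called (median 0.19), including Lgr5 at 0.00 ± 0.27 (SE). Of 6 Hedgehog target genes 1 was called lower, the receptor Ptch1 (−0.44, adjusted p = 0.0481), with a list median of −0.11.

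The genes whose profile over the 6 libraries was most like that of each abundant member were found by Pearson's r of the log2 values among named genes with a mean of at least 50. For Cyr61 these included Peli3 (r = 0.996), Cox7a2l (0.995) and Paqr4 (0.990). Their own range was narrow, as with Cox7a2l at 2085 to 2811 normalized counts. DESeq2 with the block called 0 of these 3, against 1.24% of all genes. Of the 10 genes most like Cyr61, that fit called Otud1 (r = 0.990, adjusted p = 5.6e-06) and Gprc5b (r = 0.987, adjusted p = 0.0296). Otud1 ranged more widely, from 363 to 1511 normalized counts. For Ctgf they were Fam164a (r = 0.990), Actb (0.987), Zfp869 (0.986) and Kctd12b (0.986), with Actb at 27794 to 44478 normalized counts and 0 of the 4 called. Between Cyr61 and Ctgf r was 0.759. These values describe 6 libraries that share the genotype and label-code structure above, and no p is attached to them.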

How the data were processed

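RNA from 6 libraries was compared, 3 wild type and 3 Yap knockout. Per the labels' protocols, RNA was purified on Qiagen columns and libraries were made with TruSeq RNA v2. The tools listed are STAR 2.5 and DESeq2 1.18.1, with builds mm10 and GRCm38, per the submitters' processing notes. Counter, annotation and strand setting are not given in the sources used here. The authors deposited 1 table of normalized counts, a signal made of reads divided by a size factor per library. Dividing by the smallest step of each library gave whole reads for 100% of values (tolerance 0.001 reads), and these recovered reads were used. The growth protocol names cells taken 6 or 9 weeks after tamoxifen.

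The main test was limma 3.58.1 (R 4.3.3, trend, robust) on log2(normalized count + 1), two-sided, for genes with a mean of at least 10, with calls at an adjusted p under 0.05. This scale understates changes of low genes. DESeq2 1.42.0 and edgeR 4.0.16 (TMM, quasi-likelihood) on recovered reads were alternatives, with no term, the replicate block or the label code, and all were tested on simulated data first. Same-numbered libraries correlated in their deviations from group means by 0.333, 0.327 and 0.694. Each was over 0.1, so the replicate number was used as the block. A shared label code can give such values by itself, so they do not show that libraries were paired by number. Within DM22, wild-type library 2 and knockout library 1 correlated by 0.5045, above both same-numbered pairs. Wild-type library 1 and knockout library 2 correlated by 0.260.

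Genes named were the 5 members, Yap1, up to 3 genes per list called by DESeq2 with the block (otherwise up to 2 of the highest mean, as values), and the 4 genes most like each tested member, of which 1 is not reported here. Amotl2, Vgll3, Thbs2, Wisp3, Otud1, Gprc5b, Xist and the cell type markers named were added after values were seen. Members and lists were chosen with earlier results of these data known. Exon lengths and coordinates (1-based) are from GENCODE M21, to which 22848 of 23337 genes were matched.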

Additional observations from a re-analysis of the deposited data

How the results depend on the processing

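Cyr61 stayed below 0 in every fit run, and its call depended on the tool. EdgeR did not call it with no term, the block or the label code, and limma did not in any setting run, which included another pseudocount, no low-value filter, a mean of at least 50, quantile scaling and the DM22 libraries alone. DESeq2 called it with no term (−1.89), with the replicate block (−1.78), with the label code (−1.78) and in the DM22 libraries alone (−1.96). Of the DESeq2 fits that left out a library with no term, only that without wild-type replicate 3 called it (−2.29), and its values with a label-code term ran from −1.97 to −1.66 (−1.75 and −1.69 without wild-type replicates 1 and 2). When a pair was left out under the block they ran from −1.97 to −1.60, with −1.76 without pair 1. Ctgf reversed to 0.11 by limma without knockout replicate 3, and by DESeq2 to 0.055 without wild-type replicate 1 and to 0.0050 without knockout replicate 3. It was called by DESeq2 without wild-type replicate 2 with the label code (−0.66) and without pair 2 under the block (−0.82). The causes were not tested.

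Limma called 0 genes, and 2 in the DM22 libraries alone. DESeq2 called 72 with no term, 170 with the replicate block, 299 with the label code and 265 in the DM22 libraries. Leaving out a library gave 0 to 1 genes by limma, 21 to 239 by DESeq2 (21, 223 and 234 without wild-type replicates 1 to 3, and 52, 26 and 239 without knockout replicates 1 to 3) and 85 to 493 by DESeq2 with the label code (124, 493, 221, 138, 85 and 224 in the same order). Leaving out pairs 1 to 3 under the block gave 49, 183 and 113. With 1 to 17 reads per library, depth limits Nov and Wisp1, and Wisp2 had at most 2. Alternatives with the block for the low members, the DESeq2 fits that left out a library or a pair, and the DESeq2 fit of the DM22 libraries were chosen after seeing the data.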
